A study of Mus musculus with 2 samples.

Results

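The 7 genes described here are ligands of the tumour necrosis factor (TNF) superfamily: Tnf (TNF), Lta (lymphotoxin alpha), Ltb (lymphotoxin beta), Tnfsf11 (RANKL), Tnfsf10 (TRAIL), Tnfsf14 (LIGHT) and Tnfsf8 (CD30 ligand). They were chosen by name, with earlier results of these data known, and all 7 were found among the 17238 genes of the deposited count table. The cells came from a sort for IL7ra+ innate lymphoid cells (ILCs) out of small intestine and colon tissue of C57BL/6 mice. The mice were 8 weeks old, and the titles call them fed. Each tissue gave 1 single-cell library made with the 10x Chromium 3′ v2 kit from a pool of 8 mice, so mice cannot be told apart within a library. The table held 5490 cells of the small intestine and 7549 cells of the colon. Each ligand was followed over cells with at least 1 unique molecular identifier (UMI, a tag that counts an RNA molecule once) of Ccr6, Ncr1, Gata3, Klrd1 or Cd3e.

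Ligands of this family are made as trimers, mostly at the cell surface, and signal through receptors that recruit TRAF adaptors and switch on NF-kB or, for receptors with a death domain, caspases. Lymphotoxin alpha pairs with lymphotoxin beta on the membrane and acts on the lymphotoxin beta receptor, which lymphoid tissue inducer cells use to start lymph nodes, Peyer's patches and the solitary lymphoid follicles of the gut. RANKL on such cells acts on RANK of stromal and epithelial cells, and TNF acts on a pair of widely expressed receptors. LIGHT binds both the lymphotoxin beta receptor and HVEM, TRAIL binds a death receptor, and CD30 ligand binds CD30 on activated lymphocytes.

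Tnf, Lta and Ltb are neighbours on chromosome 17 (mm10). Ltb lies on the plus strand at 35194439 to 35196320, Tnf on the minus strand at 35199381 to 35202007 and Lta on the minus strand at 35203165 to 35205351. Tnfsf14 is on the same chromosome at 57189492 to 57194177, Tnfsf11 on chromosome 14 at 78277445 to 78308043, Tnfsf10 on chromosome 3 at 27317028 to 27342427 and Tnfsf8 on chromosome 4 at 63831308 to 63861347. The promoters of the 3 neighbours are shown with that of Tnfsf11, because Tnf and Ltb had higher levels in the small intestine, Tnfsf11 had a higher level in the colon, and Lta stood between them. Each is the 250 bases before the RefSeq start (GRCm38.p6), 5′ to 3′ on the strand of the gene, with motif matches in capitals. Motifs were searched on both strands for 3 patterns: the TATA box as TATAAA, then the AP-1 site as TGAGTCA, and the NF-kB consensus by name. In Tnf the capitals mark TATAAA at positions −29 to −24 from the start, in Lta TATAAA at −167 to −162, in Ltb an NF-kB consensus on the other strand at −87 to −78, and in Tnfsf11 TATAAA on the other strand at −32 to −27.
Tnf: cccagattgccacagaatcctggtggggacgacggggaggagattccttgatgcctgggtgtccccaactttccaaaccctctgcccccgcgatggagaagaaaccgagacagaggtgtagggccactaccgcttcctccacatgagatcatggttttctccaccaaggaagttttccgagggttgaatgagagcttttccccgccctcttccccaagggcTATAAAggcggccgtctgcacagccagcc
Lta: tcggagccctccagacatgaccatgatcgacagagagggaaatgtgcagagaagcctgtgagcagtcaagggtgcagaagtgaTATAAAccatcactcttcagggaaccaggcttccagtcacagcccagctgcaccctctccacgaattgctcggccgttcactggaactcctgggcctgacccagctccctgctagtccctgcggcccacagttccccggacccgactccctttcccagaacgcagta
Ltb: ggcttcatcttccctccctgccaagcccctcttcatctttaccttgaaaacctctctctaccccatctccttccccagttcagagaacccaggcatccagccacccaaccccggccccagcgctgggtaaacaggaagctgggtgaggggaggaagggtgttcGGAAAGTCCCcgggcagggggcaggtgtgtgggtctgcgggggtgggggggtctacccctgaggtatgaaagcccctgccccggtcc
Tnfsf11: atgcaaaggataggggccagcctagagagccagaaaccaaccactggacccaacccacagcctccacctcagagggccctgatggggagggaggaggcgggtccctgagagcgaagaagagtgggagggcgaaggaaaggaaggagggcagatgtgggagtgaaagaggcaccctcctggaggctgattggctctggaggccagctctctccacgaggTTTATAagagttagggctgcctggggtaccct
In Tnfsf14 the search found TGAGTCA at positions −160 to −154, and in Tnfsf10 and Tnfsf8 these letters were not in the window. Of 32851 promoters of this length, 12.4% held TATAAA, 7.25% the NF-kB consensus and 4.46% TGAGTCA. A match is given only as a description.

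The cells held 15080081 UMIs in the small intestine and 22332691 UMIs in the colon, with a median of 2579 and 2600 UMIs per cell and of 1201 and 1075 genes per cell. Of the barcodes of these cells, 60 occurred in both libraries. Marker-positive groups overlapped, and 13.2% of small intestine cells and 13.5% of colon cells were positive for more than 1 of the 5 markers. None of the 5 was seen in 34.3% and 21.4% of cells, so a marker-negative cell may be a cell whose marker was missed at this depth. In the Ccr6+ groups (541 and 357 cells) the lymphoid tissue inducer markers summed to 8518 and 7715 CPM (UMIs of a gene per 1000000 UMIs of the cells), of which the cytokine gene Il22 made up 7430 and 6851 CPM. Il22 is also on the list of NCR+ group 3 ILCs, which summed to 7689 and 7045 CPM in these cells, so the sums do not set these identities apart, and the cells are named by Ccr6. In the Gata3+ groups (1643 and 4218 cells) the 8 listed markers of group 2 ILCs, Gata3 among them, summed to 3360 and 3876 CPM. Over all cells they summed to 2275 and 3093 CPM. Within the list Il1rl1, the interleukin 33 receptor, was at 26.4 CPM in small intestine Gata3+ cells against 124 CPM in colon ones. Gata3+ cells of both tissues are named by their marker here and not as group 2 ILCs. In the Klrd1+ groups (172 and 482 cells) the 11 listed markers of group 1 ILCs (ILC1) and natural killer cells summed to 15290 and 8935 CPM. Over all cells these markers, Klrd1 among them, summed to 1333 and 1202 CPM. Within the list Eomes, a regulator of natural killer cells, was at 4.26 and 6.37 CPM in Klrd1+ cells. Ncr1 was also seen in 52.3% and 45.0% of Klrd1+ cells. The Cd3e+ groups held 429 and 1384 cells of a sort aimed at ILCs, and the Ncr1+ groups 1605 and 665 cells. In the Cd3e+ groups the 9 listed T cell markers, Cd3e among them, summed to 6623 and 5054 CPM. Over all cells the T cell markers summed to 1794 and 2127 CPM. Antibody and B cell genes summed to 7228 CPM in small intestine cells and 2471 CPM in colon cells, highest in the cells with none of the 5 markers (19373 and 11470 CPM).

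With 1 library per tissue there is no replicate, so no test was possible. Every interval below is a 95% interval for counting error alone, and differences between mice or between libraries are not covered. A ligand with at least 20 UMIs over both libraries was counted as apart when its levels differed at least 2-fold.

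Between tissues the ligands went in different directions within the same groups of cells. In Ncr1+ cells Tnf had an at least 2-fold higher level in small intestine cells and Tnfsf8 in colon cells, 2 of 7 ligands, where 13.4% of all 9686 genes tested were apart (9.26% higher in the small intestine and 4.13% higher in the colon). In Cd3e+ cells Lta, Tnfsf11 and Tnfsf8 were apart, all higher in the colon, 3 of 7 against 9.44% of genes (4.32% higher in the colon). In Klrd1+ cells Tnf was higher in the small intestine and Lta, Tnfsf11 and Tnfsf8 were higher in the colon, 4 of 7 against 12.1% of genes (7.17% higher in the small intestine, 4.89% in the colon). In Ccr6+ cells 1 of 6 ligands was apart, Tnfsf14 with the higher level in the colon, against 10.9% of genes (3.4% in that direction). In Gata3+ cells 1 of 7 was, Tnf with the higher level in the small intestine, against 11.8% of genes (7.42% in that direction), and over all cells again Tnf alone, against 14.3% of genes (8.92%). The shares in Cd3e+ and Klrd1+ cells are thus above the background, that in Ncr1+ cells rests on 1 ligand in each direction, and those in the other groups rest on 1 ligand. The ligands were chosen with earlier results of these data known, so these shares are a description only. Of the 4 in Klrd1+ cells, Tnf and Lta each had the other sign in 1 alternative. The Klrd1+ and Ncr1+ groups share cells. In cells with both Klrd1 and Tbx21 the count was 0, but only Ltb, Tnfsf11 and Tnfsf14 had enough UMIs there, 3 of 7 ligands. In Ccr6+ cells the count lay between 1 and 3 over the alternatives. In Cd3e+ cells the markers of ILC1 and natural killer cells, all 11 measured and none at 0, summed to 4542 CPM in the small intestine against 1445 CPM in the colon, and their part in the Cd3e+ differences was not tested.

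The median log2 ratio of small intestine over colon was −0.17 over the ligands counted in Ccr6+ cells, −0.41 in Ncr1+, −0.06 in Gata3+, −0.20 in Klrd1+ and −0.54 in Cd3e+ cells. The median gene stood at 0.18, 0.21, 0.16, 0.16 and 0.15 in the same groups, so the scale itself leaned towards the small intestine by this much. Taken relative to the median gene, the direction turned for Ltb in Cd3e+ cells (0.13 before, −0.01 after) and for Tnfsf10 in Ncr1+ cells (0.07 before, −0.14 after), and the other directions given below did not turn.

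**Figure D1:**
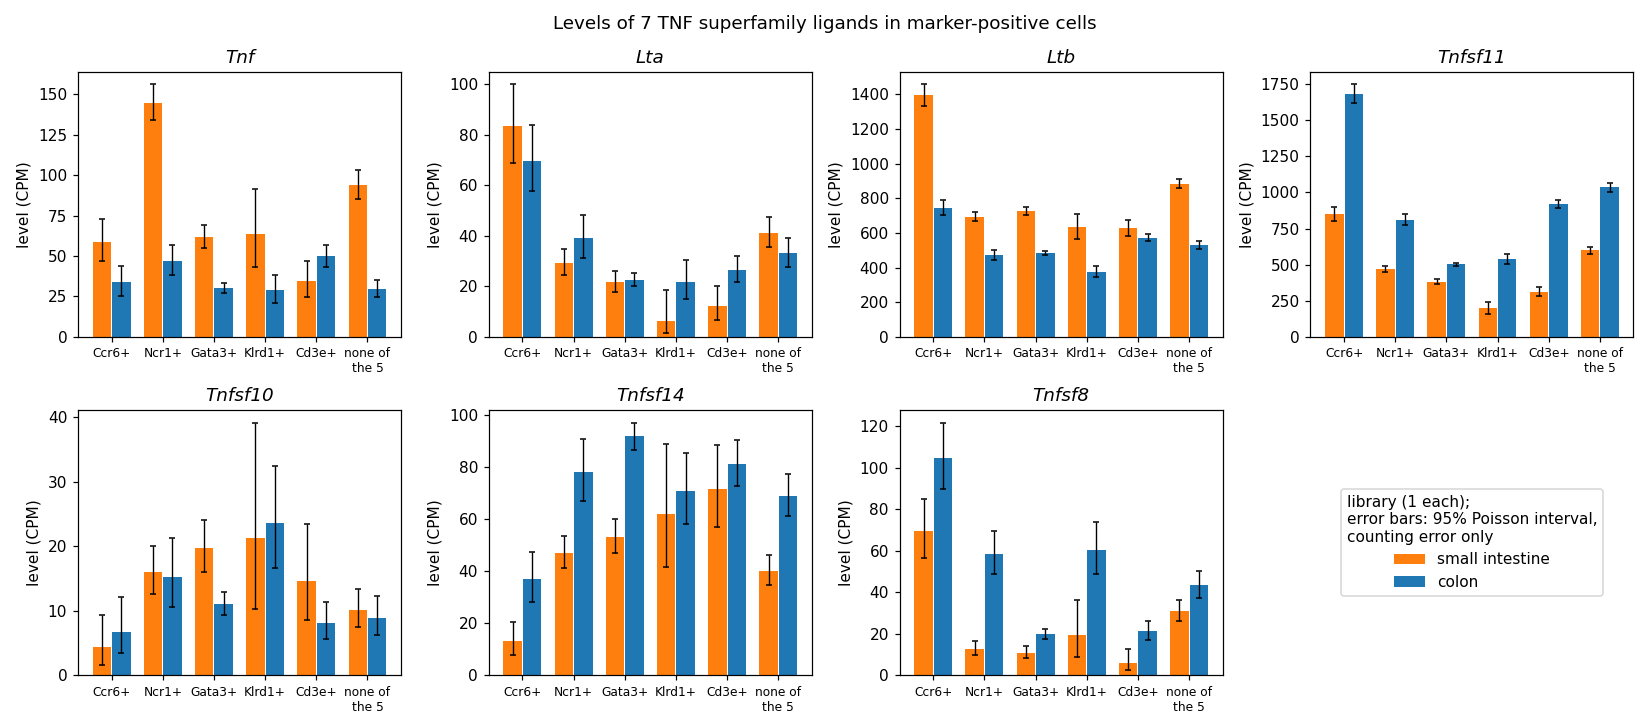
Level of each ligand in CPM (linear axes, 1 panel per gene) in cells positive for each marker and in cells with none of the 5 markers, for the small intestine and the colon (1 library each). Error bars are exact Poisson 95% intervals for counting error. Tnf is highest in Ncr1+ cells of the small intestine (145 CPM), Ltb in Ccr6+ cells of the small intestine (1393 CPM) and Tnfsf11 in Ccr6+ cells of the colon (1684 CPM).

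**Figure D2:**
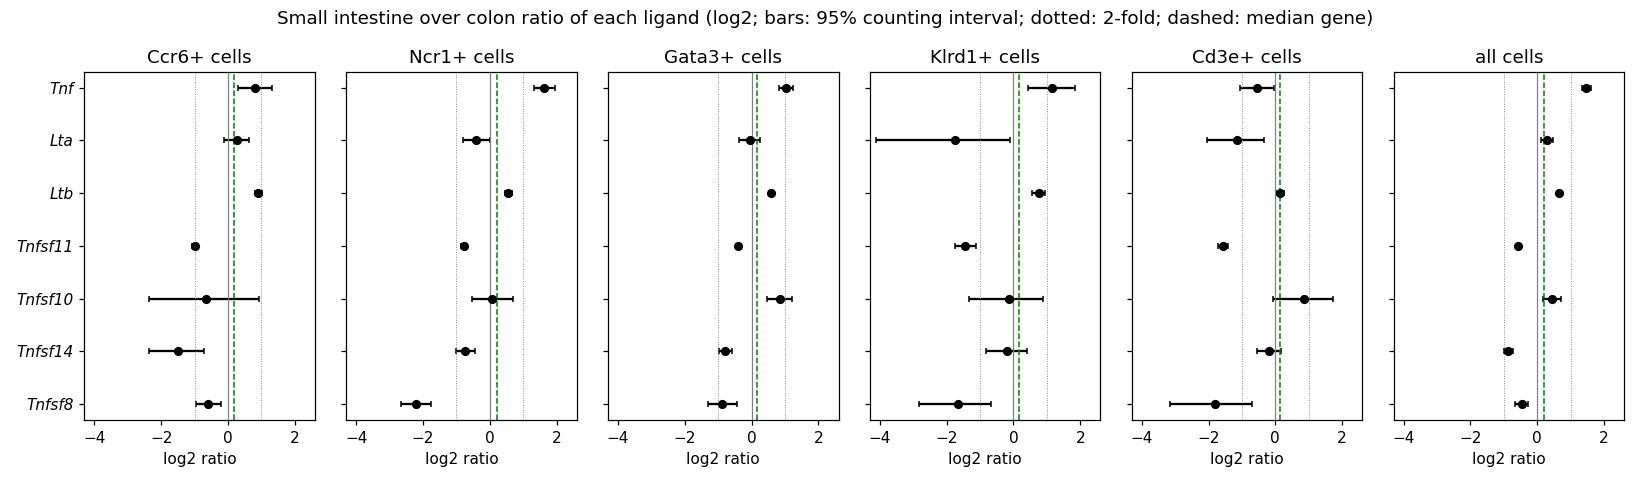
Log2 ratio of the level in the small intestine over that in the colon for each ligand, by marker-positive group and over all cells, with 95% counting intervals. Dotted lines mark 2-fold and the dashed line the median gene. Tnfsf11 and Tnfsf8 lie left of 0 in all 6 panels, while Tnf lies right of 0 in all but the Cd3e+ panel.

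Ltb, which holds lymphotoxin alpha at the membrane, was highest in Ccr6+ cells of both tissues. It stood at 1393 CPM (1332 to 1457) in small intestine Ccr6+ cells and at 745 CPM (703 to 788) in colon Ccr6+ cells, a ratio of 1.87 (1.74 to 2.01). The other marker-positive small intestine groups followed, Gata3+ at 728, Ncr1+ at 694, Klrd1+ at 632 and Cd3e+ at 628 CPM. No neighbours among these 4 differed beyond their intervals. Among marker-positive colon groups the order was Ccr6+, then Cd3e+ at 573, Gata3+ at 485, Ncr1+ at 473 and Klrd1+ at 375 CPM. Gata3+ and Ncr1+ were not apart there beyond their intervals. Ltb stood at 884 CPM in small intestine and 530 CPM in colon cells with none of the markers. The small intestine level was thus the higher one in each group, with ratios of 1.50 in Gata3+, 1.47 in Ncr1+ and 1.69 in Klrd1+ cells, but in Cd3e+ cells the ratio was 1.10 (1.01 to 1.19), below that of the median gene. After each cell was thinned to 1000 UMIs, Ltb was seen in 70.4% of small intestine against 44.0% of colon Ccr6+ cells (88.9% and 82.1% before thinning), where free RNA alone would give an estimated 2.80% and 2.16%.

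Lta, the partner of Ltb and a soluble ligand of the TNF receptors on its own, shared the Ccr6+ peak but not the tissue difference. Its level was 83.3 CPM (68.8 to 99.9) in small intestine Ccr6+ cells and 69.8 CPM (57.6 to 83.9) in colon Ccr6+ cells, and the interval of the ratio (0.91 to 1.56) held 1. In Ncr1+ cells it stood at 29.3 and 39.0 CPM, in Gata3+ cells at 21.5 and 22.5 CPM and in Cd3e+ cells at 12.0 and 26.6 CPM. Colon Cd3e+ cells thus had 2.21-fold more (1.26 to 4.17). In Klrd1+ cells only 3 UMIs were seen in the small intestine, against 34 in the colon, which gives a ratio of 0.30 with an interval of 0.06 to 0.94, and with cells positive for Klrd1 alone the direction turned (log2 ratio 1.06 on 2 and 4 UMIs). Over all cells Lta was at 34.3 CPM in the small intestine against 27.9 CPM in the colon. When both libraries were given the same mix of marker groups, the log2 ratio of 0.30 became −0.12.

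Tnf was highest in Ncr1+ cells of the small intestine. It stood there at 145 CPM (134 to 156), against 46.6 CPM (38.1 to 56.5) in colon Ncr1+ cells, a ratio of 3.11 (2.52 to 3.86). These cells, 29.2% of the small intestine library, held 50.1% of its Tnf UMIs. Small intestine cells with none of the markers stood at 93.8 CPM and held 31.9% of its Tnf UMIs. Such cells of the colon stood at 29.4 CPM. In Klrd1+ cells Tnf stood at 63.9 and 28.7 CPM (ratio 2.23, 1.36 to 3.62), in Gata3+ cells at 61.8 and 30.2 CPM (2.05, 1.76 to 2.38) and in Ccr6+ cells at 58.9 and 33.7 CPM (1.75, 1.23 to 2.51). In cells positive for Ccr6 alone the levels were 59.4 and 17.5 CPM, a ratio of 3.39 (1.71 to 7.47) and past the 2-fold threshold. The levels of the Klrd1+, Gata3+ and Ccr6+ groups of the small intestine did not differ beyond their intervals, nor did those of the same 3 groups of the colon. Cd3e+ cells went the other way, at 34.4 CPM (24.5 to 46.8) in the small intestine against 49.8 CPM (43.3 to 57.0) in the colon, the highest colon level together with that of Ncr1+ cells. After thinning, Tnf was seen in 11.0% of small intestine against 3.91% of colon Ncr1+ cells (25.9% and 12.5% before), with an estimated 0.388% and 0.263% from free RNA.

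The Ncr1+ difference in Tnf kept a log2 ratio between 1.42 and 2.03 under the 10 alternatives run, against 1.64 as reported. The Gata3+ difference did not hold in this way. With at least 2 UMIs of Gata3 it was 0.00, in cells positive for Gata3 alone 0.72, and relative to a median-ratio size factor 0.87. In cells positive for both Gata3 and Il1rl1 it turned to −0.80, from 6 UMIs in 93 small intestine cells and 124 UMIs in 1146 colon cells. The Klrd1+ difference turned to −0.34 with at least 2 UMIs of Klrd1. In Ncr1+ cells the markers of ILC1 and natural killer cells summed to 2361 CPM in the small intestine against 4933 CPM in the colon. Those of NCR+ group 3 ILCs summed to 4704 against 3400 CPM. The Ncr1+ groups of the tissues thus differed in makeup, and the part of this in the Tnf difference was not tested. Immediate early and heat shock genes, known to respond to cell handling, summed to 21308, 15588, 14422, 11867 and 11176 CPM in Ccr6+, Ncr1+, Gata3+, Klrd1+ and Cd3e+ cells of the small intestine, and to 13736, 11665, 10693, 9372 and 9526 CPM in the colon. All 10 genes of that list were measured and none was at 0 in these groups, and their part in the Tnf and Ltb differences was not tested. Antibody and B cell genes summed to 2869 CPM in small intestine Ncr1+ cells against 114 CPM in colon Ncr1+ cells, to 1995 against 392 CPM in Gata3+ cells and to 321 against 1701 CPM in Klrd1+ cells. Of these 7 genes, the B cell gene Ms4a1 had at most 1 UMI in the Ncr1+ and Gata3+ groups, and the part of the list in the Tnf differences was not tested.

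Tnfsf11 (RANKL) had the higher level in the colon in every group. Ccr6+ cells had the most, at 850 CPM (803 to 900) in the small intestine against 1684 CPM (1621 to 1748) in the colon, 1.98-fold higher in the colon (1.85 to 2.12) and just short of the 2-fold threshold. In Cd3e+ cells the levels were 311 and 919 CPM, 2.95-fold higher in the colon (2.65 to 3.30). In Klrd1+ cells they were 198 and 537 CPM (2.71-fold, 2.19 to 3.40). Ncr1+ cells had 470 and 811 CPM (1.73-fold) and Gata3+ cells 381 and 502 CPM (1.32-fold). The order thus differed, since Cd3e+ cells were next to last in the small intestine and next to Ccr6+ cells in the colon, where Klrd1+ and Gata3+ cells did not differ beyond their intervals.

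Part of the colon excess of Tnfsf11 lay in cells with many copies rather than in more cells. Over all cells the thinned shares were close, 29.6% of small intestine and 32.6% of colon cells, but at least 10 UMIs were seen in 83 small intestine cells (1.51%) and 466 colon cells (6.17%). In Ccr6+ cells the thinned share itself was 40.5% against 66.4% (58.2% and 84.3% before thinning), and in Cd3e+ cells 22.8% against 42.7%. Free RNA would give an estimated 3.19% and 7.06%, so the Klrd1+ shares of 9.88% and 21.6% stand nearer to it. Colon Ccr6+ cells were deeper than small intestine ones, with a median of 3443 UMIs against 2366, and carried more Cd3e, 75.9 CPM against 11.5 CPM. Without the cells that scored highest in Scrublet as doublets the Ccr6+ log2 ratio was −1.16, and in cells positive for Ccr6 alone −1.34, against −0.99 as reported. With both Klrd1 and Tbx21 (32 and 88 cells) the Klrd1+ ratio moved to −0.38.

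**Figure D3:**
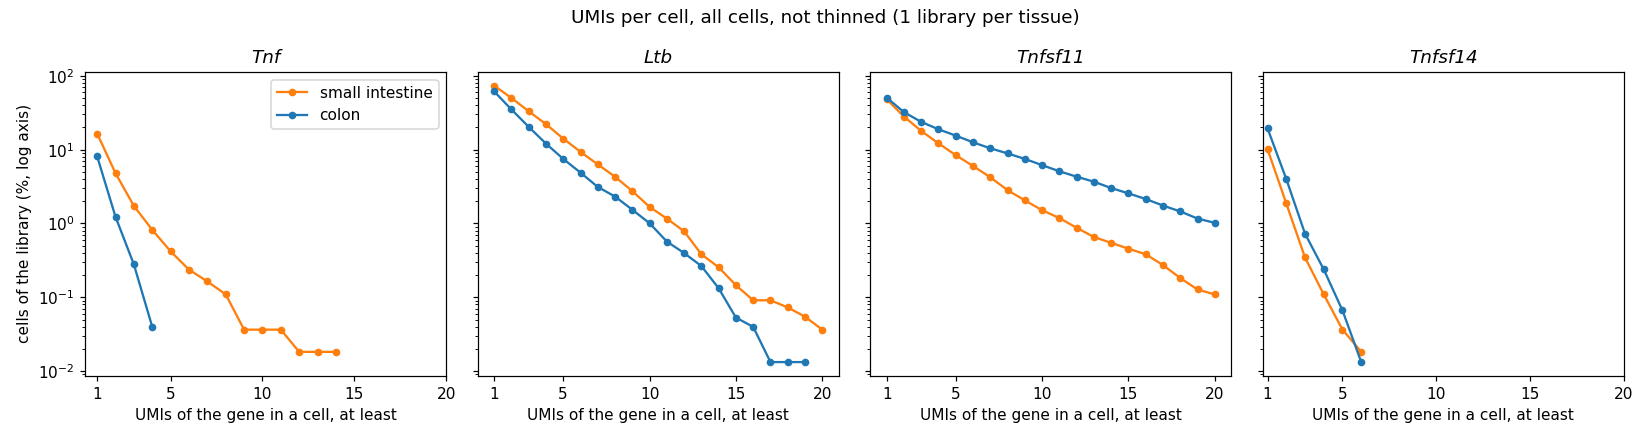
Share of the cells of each library (log axis, percent) that held at least a given number of UMIs of Tnf, Ltb, Tnfsf11 and Tnfsf14, all cells, not thinned. For Tnfsf11 the libraries start together, 48.1% of small intestine and 50.7% of colon cells with at least 1 UMI, and separate to 0.11% and 1.02% at 20 UMIs.

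Tnfsf14 (LIGHT) had the opposite pattern over groups, lowest in Ccr6+ cells. It stood there at 12.9 CPM (7.66 to 20.4) in the small intestine against 36.7 CPM (28.0 to 47.3) in the colon, 2.84-fold higher in the colon (1.66 to 5.11). This call was lost with at least 2 UMIs of Ccr6 (log2 ratio −0.39, against −1.51) and in cells positive for Ccr6 alone (−0.54). In Gata3+ cells the levels were 53.1 and 91.7 CPM (1.73-fold higher in the colon, 1.51 to 1.98) and in Ncr1+ cells 47.0 and 78.0 CPM (1.66-fold, 1.35 to 2.03). In Klrd1+ cells (61.7 and 70.7 CPM) and in Cd3e+ cells (71.3 and 81.1 CPM) the interval of the ratio held 1. Cells rarely held more than a single UMI: after thinning it was seen in 4.99% of small intestine against 8.65% of colon Gata3+ cells. Gata3+ cells, 55.9% of the colon library, held 66.9% of its Tnfsf14 UMIs.

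Tnfsf8 (CD30 ligand) was highest in Ccr6+ cells, at 69.7 CPM (56.5 to 85.0) in the small intestine against 105 CPM (89.6 to 122) in the colon. Among the marker-positive groups Klrd1+ and Ncr1+ cells came next by level, in the colon clear of Gata3+ and Cd3e+ cells. For the small intestine this order was not resolved, since the Klrd1+ (8.76 to 36.4), Ncr1+ and Gata3+ (8.18 to 14.1) intervals overlapped. Its cells with none of the markers reached 30.8 CPM, above both groups but inside the Klrd1+ interval. Colon cells with none of the markers, at 43.3 CPM, were below both. Small intestine Ncr1+ cells had 12.6 CPM (9.65 to 16.3) and colon Ncr1+ cells 58.3 CPM (48.7 to 69.2), 4.61-fold higher in the colon (3.37 to 6.37). Klrd1+ cells had 19.2 and 60.5 CPM (3.16-fold, 1.59 to 7.12), Cd3e+ cells 6.01 and 21.1 CPM (3.51-fold, 1.63 to 8.98) and Gata3+ cells 10.9 and 19.9 CPM (1.83-fold, 1.37 to 2.50). In the colon Ncr1+ and Klrd1+ cells did not differ beyond their intervals, and 32.6% of Ncr1+ cells there were also Klrd1+, against 5.61% in the small intestine. The Ncr1+ log2 ratio lay between −3.00 and −1.44 under the alternatives, against −2.20 as reported. After thinning, Tnfsf8 was seen in 0.872% of small intestine against 3.31% of colon Ncr1+ cells, with an estimated 0.0707% and 0.153% from free RNA.

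Few cells carried most of the Tnfsf8 molecules. The top 1% of cells held 63.5% of its UMIs in the small intestine against 53.8% in the colon, and 1 cell held up to 19 and 16 UMIs. For Lta that share was 34.9% and 29.9%, and for Ltb 5.86% and 7.57%. A level of Tnfsf8 therefore rests on fewer cells than its UMI count, and the counting intervals do not cover this.

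Tnfsf10 (TRAIL) was detected at a low level in each group. The levels were 4.31 and 6.74 CPM in Ccr6+ cells, 16.0 and 15.2 CPM in Ncr1+ cells, 21.3 and 23.6 CPM in Klrd1+ cells and 14.6 and 8.06 CPM in Cd3e+ cells, and the interval of each of these ratios held 1. Gata3+ cells had 19.7 CPM (16.1 to 24.0) in the small intestine against 11.0 CPM (9.33 to 12.9) in the colon, a ratio of 1.79 (1.38 to 2.32). After thinning it was seen in 1.42% of small intestine against 0.994% of colon cells.

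Each library was next split by 1 marker at a time, which compares cells that went through the same sort and library. Ccr6+ cells were at least 2-fold apart from Ccr6- cells, in the same direction in both libraries, for 3 of 7 ligands, where 5.91% of 10603 genes were (2.78% higher and 3.13% lower in Ccr6+ cells). Tnfsf8 was 4.16-fold higher in Ccr6+ than in Ccr6- cells of the small intestine (3.25 to 5.30) and 4.38-fold in the colon (3.66 to 5.22). Lta was 2.84-fold higher in both (intervals 2.29 to 3.50 and 2.30 to 3.48). Tnfsf14 was 3.80-fold lower in Ccr6+ cells of the small intestine (2.38 to 6.45) and 2.36-fold lower in those of the colon (1.82 to 3.10). Ltb (1.87-fold and 1.51-fold) and Tnfsf11 (1.84-fold and 2.55-fold) were higher in Ccr6+ cells of both libraries but under 2-fold in at least 1.

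Gata3+ cells were apart from Gata3- cells for 1 of 7 ligands, against 2.85% of genes (1.52% lower): Tnfsf8 was 2.49-fold lower in Gata3+ cells of the small intestine and 2.26-fold lower in those of the colon. Tnfsf11 was also lower in Gata3+ cells, 1.46-fold in the small intestine against 2.18-fold in the colon. For Ncr1, Klrd1 and Cd3e no ligand was apart in the same direction in both libraries, against 2.84%, 5.05% and 3.33% of genes. Tnf was nonetheless higher in Ncr1+ than in Ncr1- cells of both, 2.19-fold in the small intestine (1.97 to 2.44) and 1.50-fold in the colon (1.21 to 1.85).

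**Figure D4:**
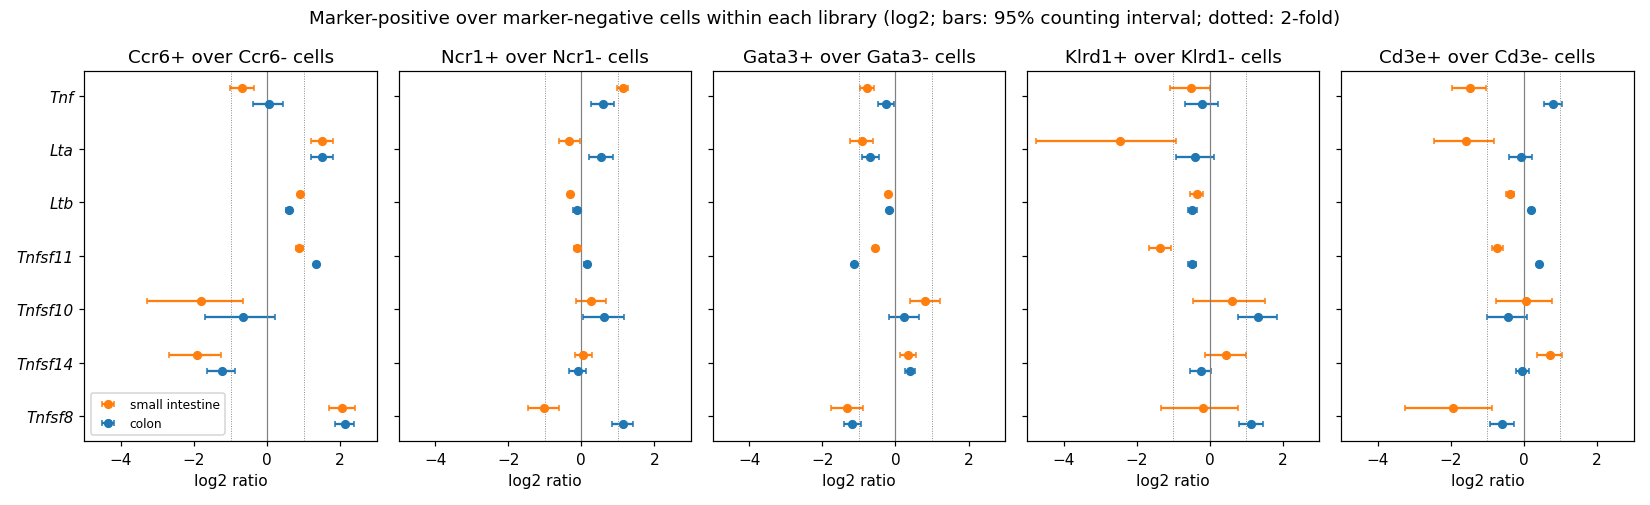
Log2 ratio of the level in marker-positive over marker-negative cells within each library, for each ligand and marker, with 95% counting intervals and dotted lines at 2-fold. In the Ccr6 panel both libraries place Lta and Tnfsf8 to the right and Tnfsf14 to the left of the 2-fold lines, and in the Ncr1 and Cd3e panels several ligands lie on opposite sides of 0.

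Single cells were then read for more than 1 ligand, after thinning. None of the 7 was seen in 15.9% of small intestine against 13.4% of colon Ccr6+ cells, against 48.8% and 50.4% of Klrd1+ cells. Tnfsf8 and Tnfsf11 shared cells: Tnfsf11 was seen in 47.4% of Tnfsf8+ cells of the small intestine (37.2 to 57.8) and in 55.6% of those of the colon (47.3 to 63.7), against 29.2% and 32.1% of Tnfsf8- cells. Ltb was seen in 61.0% and 46.7% of Lta+ cells, against 48.8% and 34.0% of Lta- cells. Tnf and Lta, neighbours in the genome, were seen together in 16 small intestine cells and 2 colon cells. Lta was thus seen in 3.93% of Tnf+ cells of the small intestine (2.26 to 6.31) and 0.877% of those of the colon (0.106 to 3.13), against 2.91% and 2.46% of Tnf- cells.

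The libraries differed in makeup, with Gata3 seen in 29.9% of small intestine against 55.9% of colon cells and Ncr1 in 29.2% and 8.81%. With both libraries weighted to the same mix of marker groups, the log2 ratio over all cells was 1.21 for Tnf (1.48 unweighted), 0.59 for Ltb (0.66), −0.90 for Tnfsf11 (−0.56), −0.69 for Tnfsf14 (−0.86) and −0.90 for Tnfsf8 (−0.46). The directions of these 5 ligands were the same with and without the weights.

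The receptors of these ligands were also read in the sorted cells. Of 28 receptors and co-receptors listed, 26 were in the table and 23 had enough UMIs over all cells, of which 4 reached a 2-fold higher level in small intestine cells and 7 in colon cells, where 14.3% of all genes were apart in either direction. Ltbr, the lymphotoxin beta receptor, was sparse, at 7.03 CPM in small intestine and 2.37 CPM in colon cells (106 and 53 UMIs), and Tnfrsf14, which encodes HVEM, had 11 and 10 UMIs. Tnfrsf1b, a TNF receptor without a death domain, was at 91.5 and 85.7 CPM, and Tnfrsf1a, the one with a death domain, at 25.2 and 16.5 CPM. Tnfrsf11a, which encodes RANK, was at 7.49 and 8.91 CPM, and its decoy Tnfrsf11b had 3 and 4 UMIs. Tnfrsf10b, the TRAIL receptor of the mouse, was at 8.95 CPM in the small intestine against 20.9 CPM in the colon. Tnfrsf8, which encodes CD30, was not analysed here.

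Among the other receptors, Cd160, a ligand of HVEM, was at 142 CPM in the small intestine against 40.4 CPM in the colon (3.50-fold higher in the small intestine, 3.24 to 3.79). Tnfrsf21, a death receptor, was at 33.5 and 14.0 CPM (2.40-fold). In the colon the costimulatory receptors Tnfrsf9 (39.5 CPM in the small intestine against 99.8 CPM in the colon) and Cd27 (66.7 and 146 CPM) stood higher. Tnfrsf9 was higher in the colon in each marker-positive group, from 2.02-fold in Gata3+ cells (39.5 against 79.8 CPM) to 4.79-fold in Ncr1+ cells (37.9 against 182 CPM). Downstream of the receptors, over all cells 1 of 20 adaptors and kinases (Traf5, named after its value was seen) was at least 2-fold apart. None was among 14 NF-kB subunits and inhibitors and 8 genes of shedding and mRNA decay, where 14.3% of all genes were. In Ncr1+ cells 3 of 8 genes of shedding and decay, 0 of 14 NF-kB genes and 1 of 20 adaptors and kinases in each direction were apart. The share of all genes there was 13.4%. In Klrd1+ cells 4 of 18 adaptors and kinases, 1 of 14 NF-kB genes and 0 of 6 genes of shedding and decay were, against 12.1% of all genes. The 3 in Ncr1+ cells, named after their values were seen, encode proteins that bind AU-rich mRNA and promote its decay: Zfp36 and Zfp36l1 were 2.43-fold and 2.44-fold higher in the small intestine, and Zfp36l2 was 2.32-fold higher in the colon. Of 11 other ligands of the family 8 were in the table and 6 had enough UMIs, with Tnfsf12 (15.5 and 7.12 CPM) higher in the small intestine and Cd40lg (3.12 and 6.31 CPM) and Cd70 higher in the colon.

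Likeness of pattern was read over 10 levels, those of cells positive for exactly 1 of the 5 markers in each library, among 8611 genes. Points of 1 library share its depth and free RNA, and the Klrd1 point of the small intestine rests on 31 cells. The nearest genes were Josd2 for Tnf (Pearson r = 0.96), Dad1 (0.96), Cd82 and Cyba for Lta, Slc39a7 (0.95) and Lamp1 for Ltb, and Sphk2 (0.96), Tnip1 (0.94) and Fth1 (0.93) for Tnfsf11. For Tnfsf10 they were Osgin1 (0.96) and Arid3b, for Tnfsf14 Btg1 and Ccnd2 (0.96 each), and for Tnfsf8 Socs1 and Zbtb46 (0.97 each). Within the family Tnfsf11 was most like Tnfsf8 (0.81), Lta was like Tnfsf11 (0.72) and Ltb (0.71), and Lta and Tnfsf10 ran opposite (−0.82).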

How the data were processed

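The authors deposited raw UMI counts as matrices of genes by barcodes. The submitters' processing notes name Cell Ranger 3.0.2 and the build mm10. A second deposited table gives the same counts for the cells they kept, with 0 differences at matched genes and barcodes. The annotation and the rule that chose those cells are not given in the sources used here. The table's cells were used as deposited, and 0 of its sample columns were left unused.

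UMIs of a gene were summed over the cells of a group (at least 1 UMI of the marker) and divided by all UMIs of those cells to give CPM. Levels have exact Poisson intervals at 95%, ratios have intervals from the exact binomial distribution of one count given both, and shares have Clopper-Pearson intervals. They assume no extra variation between cells. Only the ratio and its interval were tried on simulated counts, drawn from the Poisson model that the interval assumes. That trial could not show the effect of extra variation between cells. For shares, 1000 UMIs were drawn from each cell without replacement (thinning), which left out 0 cells. The profile of free RNA came from barcodes of 10 to 50 UMIs, and its share of cell UMIs (5.36% in the small intestine against 8.25% in the colon) was estimated from Igkc, Igha and Jchain. Doublets were kept. Scrublet's automatic threshold called 0 cells, so an alternative left out the 241 and 456 top-scoring cells, at 0.8% per 1000 cells.

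The members and the gene lists were chosen with earlier results of these data known. The named genes are the 7 ligands, their receptors, up to 4 genes of the wider lists in each direction (at least 20 UMIs, at least 20 CPM in the higher tissue and 2-fold apart over all cells, in the order of the bound of the interval that lies nearest to 1) and up to 3 genes most like each ligand (at least 200 UMIs). 1 gene of the marker lists is not reported here and was left out of their sums. Genes named outside this rule are other receptors, markers and single genes behind small counts. Alternatives changed the marker threshold, the groups, the cells, the scaling, the averaging, the minimum of UMIs and the thinning, and subtracted free RNA. Gene positions are from GENCODE vM21 (mm10), and promoters those of RefSeq on GRCm38.p6 (all 7 genes matched). Python 3.11.15, numpy 2.4.6, scipy 1.17.1, pandas 2.3.3 and scanpy 1.11.5 were used.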

Additional observations from a re-analysis of the deposited data

Results flagged for a closer look

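In 6 cases a ligand was higher in marker-positive than in marker-negative cells of one tissue and lower in the other, with both counting intervals clear of 0. There is 1 library per tissue, so the difference was not tested in any of them. Values are log2 ratios of marker-positive over marker-negative cells.

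Tnfsf8, the CD30 ligand gene, had a ratio of −1.02 in the small intestine against 1.13 in the colon for Ncr1. Lta had −0.32 in the small intestine against 0.55 in the colon for Ncr1. Tnfsf11 had −0.12 in the small intestine against 0.16 in the colon for the same marker, both small. Colon Ncr1+ cells held more Klrd1+ cells (32.6%) than small intestine Ncr1+ cells did (5.61%), and the part of this in the ratios was not tested.

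Tnf had a ratio of −1.48 in the small intestine against 0.80 in the colon for Cd3e. Tnfsf11 had −0.72 in the small intestine against 0.40 in the colon for Cd3e. Ltb had −0.38 in the small intestine against 0.21 in the colon for Cd3e. The cells that served as the Cd3e- side also differed in makeup, since 29.2% of small intestine cells were Ncr1+ against 8.81% of colon cells.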

How the results depend on the processing

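No paired analysis was possible because there was 1 library per tissue. Counts below are of ligands at least 2-fold apart among those with at least 20 UMIs, 7 unless another number is given. For the tissue difference in Ccr6+ cells (1 of 6 as reported, and 6 in each alternative named) the count was 2 with at least 2 UMIs of the marker, 2 in cells positive for exactly 1 marker, 3 without the top-scoring Scrublet cells, 2 with a median-ratio size factor, 3 with the mean CPM over cells and 2 with free RNA subtracted. Tnfsf11 stands there at a log2 ratio of −0.99, next to the threshold, but the ligands behind the count also changed. With at least 2 UMIs of Ccr6, Tnfsf11 (−0.72) and Tnfsf14 (−0.39) were both under 2-fold and Ltb (1.07) was past it. In cells positive for Ccr6 alone Tnf (1.76) and Tnfsf11 (−1.34) were past 2-fold. Tnfsf14, the ligand apart as reported, was not (−0.54). In Gata3+ cells (1) it was 0 with exactly 1 marker and 2 with groups set by 2 markers, in Klrd1+ cells (4) 0 with 2 markers, where only 3 ligands had enough UMIs, and over all cells (1) 2 with the size factor. With at least 2 UMIs of Gata3 and with the size factor the Gata3+ count stayed at 1, but the ligand was not Tnf. It was Tnfsf8, higher in the colon, with log2 ratios of −1.14 and −1.04. For ligands apart between marker-positive and marker-negative cells in both libraries, the Ccr6 count (3) was 5 with exactly 1 marker, and the Klrd1 count (0) was 1 with at least 2 UMIs, 1 with exactly 1 marker and 1 with 2 markers. The causes were not tested, but groups set by 2 markers hold fewer cells, down to 32 Klrd1+ cells of the small intestine.

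Of 42 pairs of a ligand and a group, 11 had the other sign in at least 1 alternative, 8 of them less than 2-fold apart as reported. The other 3 were at least 2-fold apart as reported. Tnf in Klrd1+ cells had a log2 ratio of −0.34 with at least 2 UMIs of Klrd1 (1.16 as reported), Lta in Klrd1+ cells 1.06 with exactly 1 marker (−1.76) and Tnf in Gata3+ cells −0.80 in cells with both Gata3 and Il1rl1 (1.03). The minimum of UMIs, the stricter cell filter, all barcodes of the full matrices and leaving out the 60 shared barcodes changed none of the 11 counts beyond 1.5 times. Groups set by 2 markers (run for Gata3, Klrd1 and Cd3e), equal weights of marker groups and leaving out shared barcodes were added after seeing the data. Depth limits Tnfsf10, Lta and Tnfsf8 most, with 213, 518 and 326 UMIs in the small intestine.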

Other observations

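The full matrices held 375 small intestine and 303 colon barcodes that passed at least 1000 UMIs, 300 genes and at most 10% mitochondrial UMIs but were not in the table of cells. Ltb stood there at 1078 CPM (996 to 1165) in the small intestine and 549.9 CPM (486 to 620) in the colon. Tnfsf11 stood at 631 CPM (569 to 698) in the small intestine and 1075 CPM (984 to 1171) in the colon. Tnf was at 64.1 and 39.3 CPM and Tnfsf14 at 38.8 and 80.6 CPM. These barcodes entered none of the levels above, and each of these 4 ligands was higher there in the tissue in which it was higher over all cells of the table.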
